A study of Mus musculus with 6 samples.

Results

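The long noncoding RNAs followed here were taken by name. They were the rows of the deposited expression table whose gene name was Neat1, Malat1, H19, Meg3, Gas5, Snhg1, Snhg3, Snhg8 or Snhg12. The symbols were chosen with earlier results of these data known. Of these 9 symbols, 8 had a row among the 30315 genes listed, and the level of Snhg3 was not analysed here. Neat1 and Malat1 are abundant nuclear RNAs, H19 and Meg3 are imprinted RNAs, and Gas5, Snhg1, Snhg8 and Snhg12 are small nucleolar RNA (snoRNA) hosts.

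The RNAs were measured by RNA-Seq in primary renal tubular epithelial cells (TECs) of C57BL/6 mice. The cells were transfected with siSox9, an siRNA against the transcription factor Sox9, or with the control siNC, with 3 libraries per group. The cells of both groups then went through hypoxia/reoxygenation (H/R), a culture model of ischemic injury. It consisted of 6 h at 1% oxygen in medium without glucose and 18 h of reoxygenation in complete medium. Transfection came 12 h before hypoxia. Both groups had H/R, so the comparison of siSox9 with siNC shows what differed with the siRNA and not what H/R itself changed. The cells were primary cultures sequenced in bulk, in which fewer cells of a type and less RNA per cell cannot be told apart.

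Neat1 is the RNA around which paraspeckles, ribonucleoprotein bodies of the nucleus, are assembled, and its transcription is known to rise under cellular stress, hypoxia included. Malat1, transcribed from the neighbouring gene, resides in nuclear speckles, where splicing factors are stored. SnoRNA hosts carry in their introns the snoRNAs that guide the chemical modification of ribosomal RNA. The spliced host RNA is in many cases bound by ribosomes and then destroyed by nonsense-mediated decay, so that its level reflects both synthesis and turnover. H19 and Meg3 are expressed from the maternal chromosome, are abundant in the embryo, and are much lower in most adult tissues.

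The ends of the Neat1 and Malat1 RNAs are shown first, since they decide what a Neat1 value can contain. The long Neat1 isoform, which builds paraspeckles, has a single exon of 20771 bases in GENCODE M21 (GRCm38), with no poly(A) signal AATAAA in its last 2071 bases. The short isoform has 2 exons and 3004 bases and ends 14 bases behind that signal. The last 100 bases of each are given here, with the matching stretch of Malat1, which lies 292 bases before its annotated end. Capitals mark matches to TTTCTTTT, TTTGCTTT and AAAGCAAA, the U-rich and A-rich stretches that are known to fold into a triple helix protecting the end of both long RNAs, or to AATAAA, all searched on the RNA strand.
Neat1 long isoform, chr19:5824708-5824807, minus strand: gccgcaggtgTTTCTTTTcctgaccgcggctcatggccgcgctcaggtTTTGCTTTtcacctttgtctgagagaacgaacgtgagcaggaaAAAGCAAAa
Malat1, chr19:5795982-5796081, minus strand: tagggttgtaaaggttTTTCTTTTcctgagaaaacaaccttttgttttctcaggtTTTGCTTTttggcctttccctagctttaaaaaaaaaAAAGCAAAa
Neat1 short isoform, chr19:5842307-5842406, minus strand: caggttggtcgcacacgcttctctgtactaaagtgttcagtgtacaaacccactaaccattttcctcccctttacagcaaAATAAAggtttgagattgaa

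The stretches of long Neat1 and Malat1 each held 1 match to each of the 3, and the end of short Neat1 held none of them but 1 AATAAA. The Malat1 stretch was placed to end at its A-rich run, and the 3 motifs were taken as known from these RNAs. Their matches are therefore a description and not a test. Among the last 100 bases of the 139316 annotated transcripts at least that long, 1.16% held TTTCTTTT, 0.607% TTTGCTTT, 0.739% AAAGCAAA and 28.9% AATAAA. All 3 stretches together were found at 1 annotated end, that of long Neat1. A Neat1 value in FPKM (fragments scaled by exon length and by the mapped total of the library) is taken over all 20771 bases of the gene, the first part of which both isoforms share. The isoforms therefore cannot be told apart in these values, and how the RNA was selected for sequencing, which bears on RNAs without a poly(A) tail, was not given in the sources used here.

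The start sites of the snoRNA hosts are shown next, because host RNAs commonly begin with a run of pyrimidines of the kind found in messages for ribosomal proteins. Each window covers 25 bases on either side of the start annotated in RefSeq (GRCm38.p6), written 5′ to 3′ on the strand of the gene. Capitals mark the longest run of at least 7 bases that were all C or T.
Snhg12, chr4:132308653-132308702, plus strand: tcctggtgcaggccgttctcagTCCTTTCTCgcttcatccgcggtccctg
Snhg1, chr19:8723462-8723511, plus strand: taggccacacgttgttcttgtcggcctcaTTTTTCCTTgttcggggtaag
Snhg8, chr3:123508312-123508361, minus strand: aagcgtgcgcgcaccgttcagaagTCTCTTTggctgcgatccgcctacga
Gas5, chr1:161035141-161035190, plus strand: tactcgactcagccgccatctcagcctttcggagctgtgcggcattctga

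Snhg12 had a run of 9 bases, Snhg1 of 9 and Snhg8 of 7. The runs of Snhg12 and Snhg8 spanned the annotated start, and that of Snhg1 began 4 bases downstream of it. Neither of the annotated Gas5 starts held a run of 7, and neither did the start of Snhg3. The downstream Gas5 start, which is printed, held the shorter run CCTTTC. RefSeq promoters were found for 7 of the 9 symbols, with 9 starts in all. A run of at least 7 was present at 3 of these 9, near the 29.3% of 32851 promoters in the same table. The core ACAAT bound by Sox proteins, searched on both strands from 250 bases before to 50 after each start, was present at 2 of the 9 starts (Snhg1 and Snhg3), against 31% of all promoters. ACGTG, the core letters of a hypoxia response element, was present at 2 (Malat1 and Snhg1), against 19.6%. TATAA, searched on the strand of the gene, was present at 4 (Snhg3, Snhg8, Snhg12 and 1 of the 2 Meg3 starts), against 17.5%. The Snhg12 window is printed whole because Snhg12 was one of the members called below. It held neither ACAAT nor ACGTG, and its TATAA is in capitals.
Snhg12 promoter, chr4:132308428-132308727, plus strand: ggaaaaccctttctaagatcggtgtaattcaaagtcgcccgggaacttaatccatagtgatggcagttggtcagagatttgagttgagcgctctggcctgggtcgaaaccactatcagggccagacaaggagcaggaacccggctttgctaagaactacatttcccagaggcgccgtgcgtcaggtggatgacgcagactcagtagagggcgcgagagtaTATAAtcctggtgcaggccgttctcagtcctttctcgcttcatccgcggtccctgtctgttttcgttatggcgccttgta

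The siRNA target was checked first. Sox9 stood at 8.93, 8.61 and 9.07 FPKM with siSox9 and at 25.7, 26.5 and 25.6 FPKM with siNC. The difference on the log2(FPKM + 1) scale was -1.45 (SE 0.03, limma, adjusted p = 7.03e-06), so the labels and the knockdown went together. Of 12009 genes that averaged 1 FPKM or more, 30.4% were called at an adjusted p under 0.05, 12.8% higher with siSox9 and 17.6% lower. These 1532 higher and 2118 lower genes became 1959 and 1765 when each library was centred on its median, so the balance of higher and lower calls depended on the scaling. Whole read counts recovered from the FPKM values implied a scaling total between 23893197 and 25725743 fragments per library. At those totals 1 read on a gene of 1 kb was worth 0.0389 to 0.0419 FPKM. The recovered reads summed over genes to more, 25271437 to 27211183 per library, and the reason was not tested. The levels of tubule epithelial markers varied widely. Krt8, a keratin and the highest of them, stood at 2123 ± 58.2 against 2089 ± 56.6 FPKM. Pax8 stood at 14.4 against 15.3 FPKM and Lrp2 at 2.41 against 2.13. The proximal tubule phosphate transporter Slc34a1 was at or near 0 in every library.

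Of the 8 RNAs with a row, 6 passed the minimum and 2 of these 6 were called, Neat1 and Snhg12, both higher with siSox9. Malat1, Gas5, Snhg1 and Snhg8 were not called, and H19 and Meg3 lay under the minimum. The count of 2 in 6 is close to the 30.4% called among all genes, and none was lower. The median log2 difference of the 6 was 0.06, beside -0.01 over all genes tested. In 3 of the 6 (Neat1, Snhg12 and Gas5) the lowest siSox9 library stood above the highest siNC library, while groups that did not overlap, in either direction, were seen in 46.3% of all genes tested. The plot of levels by library shows all 8.

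**Figure D1:**
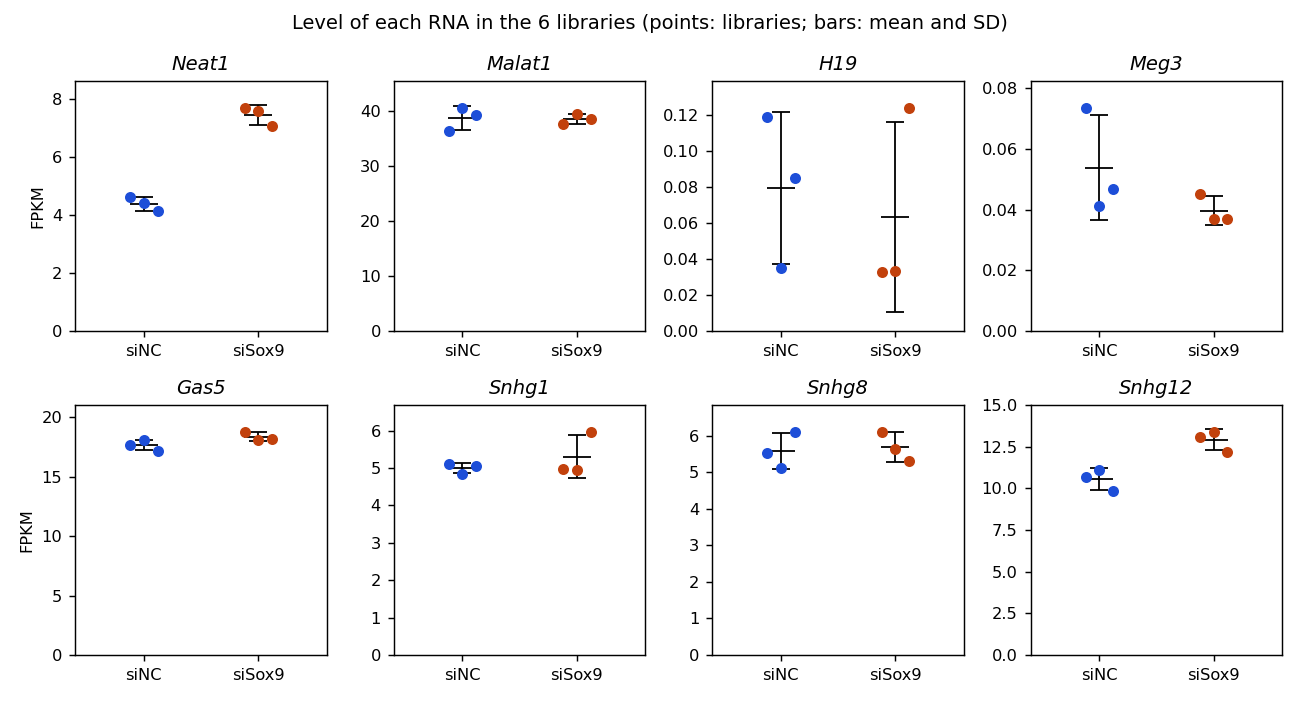
Level of each RNA in FPKM (vertical axes, each from 0) in the 3 siNC libraries (blue) and the 3 siSox9 libraries (orange), with the mean and SD in black. Neat1 lies between 7.07 and 7.70 with siSox9 and between 4.15 and 4.62 with siNC, the Snhg12 groups are also apart, and H19 and Meg3 stay below 0.13 FPKM.

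Neat1 (ENSMUSG00000092274, chromosome 19, 5824708 to 5845478, minus strand, annotated as a lincRNA) stood at 7.70, 7.59 and 7.07 FPKM with siSox9 and at 4.62, 4.42 and 4.15 FPKM with siNC. All 3 siSox9 libraries were above all 3 siNC libraries. The means were 7.45 ± 0.335 and 4.39 ± 0.236 FPKM (SD, n = 3), a ratio of 1.7. Recovered reads were 4112, 4002 and 3508 against 2381, 2217 and 2141. The log2 difference was 0.65 (SE 0.05, 95% interval 0.53 to 0.76, limma adjusted p = 0.000215). It was the largest difference among the 6 RNAs tested and ranked 54th among the rises of all 12009 genes. Its interval did not meet that of any of the other 5.

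Malat1 (ENSMUSG00000092341, chromosome 19, 5795690 to 5802672, minus strand, a lincRNA) begins 22036 bp beyond the end of Neat1 on the same strand. It stood at 37.7, 39.4 and 38.6 FPKM with siSox9 and at 36.4, 40.6 and 39.3 FPKM with siNC. The siSox9 values lay inside the siNC range. The means were 38.6 ± 0.891 and 38.8 ± 2.14 FPKM, and the log2 difference was -0.01 (95% interval -0.11 to 0.10, limma adjusted p = 0.936). The sign of this value turned under some scalings and left-out libraries, always at a size of 0.03 or less. By mean FPKM, Malat1 ranked 6th among the 389 long noncoding genes tested and Neat1 50th.

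Within each library the ratio of Neat1 to Malat1 was taken, since it does not depend on the scaling between libraries. It was 0.204, 0.192 and 0.183 with siSox9 and 0.127, 0.109 and 0.105 with siNC. The groups were apart, with means of 0.193 ± 0.0107 and 0.114 ± 0.0115. An exact two-sided permutation test gave p = 0.1, the smallest value that 3 libraries against 3 allow.

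**Figure D2:**
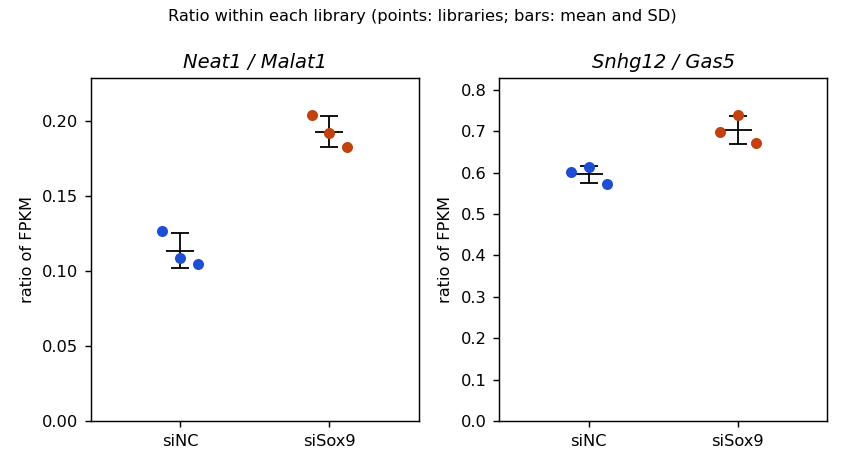
Ratio of FPKM within each library (vertical axes, from 0) for Neat1 to Malat1 and for Snhg12 to Gas5, in the 3 siNC libraries (blue) and the 3 siSox9 libraries (orange), with the mean and SD in black. Neat1 to Malat1 lies between 0.183 and 0.204 with siSox9 and between 0.105 and 0.127 with siNC, and Snhg12 to Gas5 between 0.672 and 0.739 against 0.572 to 0.613.

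On its other side, at 4224 bp, lies Frmd8, which encodes a FERM domain protein. Frmd8 stood at 26.5 ± 0.62 FPKM with siSox9 and 24.5 ± 0.115 with siNC, a log2 difference of 0.11 (limma adjusted p = 0.0327). That call was lost without siSox9 replicate 2 or 3 and without siNC replicate 2 or 3 (adjusted p = 0.0826 to 0.122), after rescaling to TPM (0.0874) and with the replicate block (0.0657). Frmd8 was the only one called among the 14 nearest tested genes on either side of the members that were not members themselves. Over all genes tested 30.4% were called. The 3 genes whose 6 values, centred on the mean, lay nearest to those of Neat1 by Euclidean distance were Kctd11 (distance 0.0746), Hook2 (0.0853) and Amdhd2 (0.0932). Kctd11, an adaptor of a ubiquitin ligase that restrains Hedgehog signalling, stood at 53.5 ± 1.08 against 34.6 ± 0.734 FPKM. Hook2, a linker of organelles to microtubules, stood at 20.8 ± 0.3 against 12.5 ± 0.621 FPKM. Amdhd2, an enzyme of amino sugar metabolism, stood at 12.3 ± 0.269 against 7.47 ± 0.121 FPKM. These were chosen by likeness in the same libraries, so their differences are a description.

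The proteins of the bodies in which the nuclear RNAs reside were described from lists. Of 19 paraspeckle proteins, all tested, 4 were called lower and 0 higher, with a median log2 difference of -0.03. That share of lower calls is near the 17.6% of all genes. Sfpq, an RNA binding protein that the body cannot form without, stood at 53.5, 52.3 and 51.7 FPKM against 58.5, 59.8 and 62.2. Its log2 difference was -0.19 (SE 0.03, limma adjusted p = 0.00516). Pspc1, a partner of Sfpq from the same family, stood at 4.47, 4.15 and 4.61 FPKM against 5.66, 5.35 and 5.36. Its log2 difference was -0.26 (SE 0.05, adjusted p = 0.00683). Nono, the remaining member of that family, was at 107 ± 2.64 against 105 ± 3.13 FPKM, with a log2 difference of 0.03 and an interval of -0.05 to 0.11.

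Nudt21, a subunit of the cleavage factor whose action at the Neat1 poly(A) signal yields the short isoform, stood at 11.2, 12.1 and 12.1 FPKM against 14.3, 14.5 and 13.8. Its log2 difference was -0.25 (SE 0.04, limma adjusted p = 0.00473), and the groups did not overlap. Of its alternative larger subunits, Cpsf6 had a log2 difference of 0.01 (interval -0.08 to 0.11) and Cpsf7 one of -0.04 (interval -0.11 to 0.03). Hnrnpk, which is known to oppose the cleavage, had one of -0.05 (interval -0.13 to 0.03). The fourth paraspeckle protein called was Hnrnph3, with a log2 difference of -0.20 (adjusted p = 0.0246). Its call was lost without any 1 of siSox9 replicates 1 to 3 or siNC replicates 1 and 2 (adjusted p = 0.0528 to 0.074), under TPM (0.125) and quantile normalization (0.0594), and with no minimum (0.0692, and 0.0805 with voom on recovered reads).

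Of 20 nuclear speckle proteins, all tested, 4 were lower and 0 higher, with a median of -0.05, also near the background. The 4 were among the 9 splicing factors of the SR family on the list, or 44.4% of them, beside 17.6% of all genes called lower. That grouping was made after the values were seen. Of the 9, Srsf2, Srsf5, Srsf6, Srsf10 and Srsf11 were not called, with log2 differences from -0.08 to 0.09. Srsf3 fell by 0.19 on the log2 scale (limma adjusted p = 0.00472), from 42.3 to 37.0 FPKM. Srsf7 fell by 0.22 (adjusted p = 0.00742), Srsf1 by 0.14 (adjusted p = 0.0106) and Srsf4 by 0.25 (adjusted p = 0.0244). Srsf4 lost the call without siSox9 replicate 2, siNC replicate 2 or siNC replicate 3 (adjusted p = 0.0542 to 0.0806), with no minimum (0.0777) and with quantile normalization (0.0594). Srsf1 lost it under TPM (0.107) and without siSox9 replicate 2 (0.0506).

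Among the snoRNA hosts, Snhg12 (ENSMUSG00000086290, chromosome 4, 132308678 to 132311024, plus strand) was the member called. It stood at 13.1, 13.4 and 12.2 FPKM with siSox9 and at 10.7, 11.1 and 9.85 FPKM with siNC. All siSox9 libraries were above all siNC libraries, though the gap between the groups was narrower than for Neat1. The means were 12.9 ± 0.63 and 10.5 ± 0.635 FPKM, a ratio of 1.23, and recovered reads were 550, 553 and 474 against 430, 436 and 398. The log2 difference was 0.27 (SE 0.05, 95% interval 0.15 to 0.40, limma adjusted p = 0.00901).

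The snoRNAs that Snhg12 is known to host include H/ACA snoRNAs, which guide pseudouridylation. The gene length that turned its values into whole reads was 1626 bases, or 69.3% of its span, and which transcripts make up that length was not worked out, so host exons and introns cannot be told apart. One hosted snoRNA, Snora16a, lies within Snhg12 and has a row of its own, listed at 0 in 5 libraries and at 0.294 FPKM (1 read) in siNC replicate 1. No level of the snoRNA itself can be read from so few reads. Trnau1ap, a selenocysteine pathway factor on the opposite strand whose end lies 739 bp from that of Snhg12, had a log2 difference of 0.02 (interval -0.08 to 0.12, adjusted p = 0.704). Taf12, a TFIID subunit on the other side, had one of 0.05 (adjusted p = 0.444).

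Gas5 (ENSMUSG00000053332, chromosome 1, 161034422 to 161038539, plus strand, a processed transcript) was named for its accumulation in cells whose growth has stopped, and hosts box C/D snoRNAs, which guide ribose methylation. It stood at 18.8, 18.1 and 18.2 FPKM with siSox9 and at 17.7, 18.1 and 17.2 FPKM with siNC. Read to more digits the siSox9 libraries were all above the siNC libraries, but the lowest and the highest touched at the rounding printed. The means were 18.4 ± 0.38 and 17.7 ± 0.459 FPKM, and the log2 difference was 0.05 (95% interval -0.03 to 0.13, limma adjusted p = 0.277). Gas5 shares 428 bp with Zbtb37, which runs on the opposite strand, and since strandedness was not given, reads in that overlap could not be assigned. Zbtb37, a zinc finger gene, had a log2 difference of 0.19 (adjusted p = 0.06) and passed the threshold under median centring (0.0373), quantile normalization (0.0193) and voom on recovered reads (0.00256).

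Snhg1 (ENSMUSG00000108414, chromosome 19, 8723475 to 8726443, plus strand, a processed transcript) also hosts box C/D snoRNAs. It stood at 4.99, 4.95 and 5.98 FPKM with siSox9 and at 5.10, 4.84 and 5.06 FPKM with siNC. Only siSox9 replicate 3 was above the siNC range. The means were 5.30 ± 0.583 and 5.00 ± 0.139 FPKM, and the log2 difference was 0.07 (95% interval -0.09 to 0.23, limma adjusted p = 0.482). Without siSox9 replicate 3 the difference was -0.01 (adjusted p = 0.923). Slc3a2, a subunit of amino acid transporters that starts 106 bp away in the opposite direction, stood at 43.0 ± 0.707 against 43.1 ± 1.62 FPKM (adjusted p = 0.94).

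Snhg8 (ENSMUSG00000104960, chromosome 3, 123507552 to 123508404, minus strand, a processed transcript) is the shortest of the members, with a span of 853 bases. It stood at 6.11, 5.63 and 5.30 FPKM with siSox9 and at 5.52, 5.10 and 6.09 FPKM with siNC. The groups overlapped over nearly their whole ranges. The means were 5.68 ± 0.406 and 5.57 ± 0.496 FPKM, and the log2 difference was 0.02 (95% interval -0.14 to 0.19, limma adjusted p = 0.817). With 105 to 134 reads per library, Snhg8 had the fewest reads of the members tested. At its mean read count, counting error alone was 9.16%, against 1.81% for Neat1 and 1.22% for Malat1, and a difference of the size seen in Gas5 lay well within the Snhg8 interval. For Snhg1 and Snhg8, as for Neat1 and Malat1, annotated exons covered 100% of the span, so that spliced host RNA, unspliced RNA and intron fragments cannot be told apart.

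The ratio of Snhg12 to Gas5 within a library was 0.699, 0.739 and 0.672 with siSox9 and 0.602, 0.613 and 0.572 with siNC. The groups were apart (0.703 ± 0.0337 against 0.596 ± 0.0209), and the exact two-sided permutation p was again 0.1, the smallest possible. By length-normalized level in the siNC libraries the order of the members was Malat1, Gas5, Snhg12, Snhg8, Snhg1 and Neat1. The Snhg8 and Snhg1 ranges met at 5.10 FPKM, and the other neighbours in that order did not overlap. With siSox9, Neat1 lay above both Snhg8 and Snhg1, whose highest values were 6.11 and 5.98 FPKM, while the order of the others was the same.

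**Figure D3:**
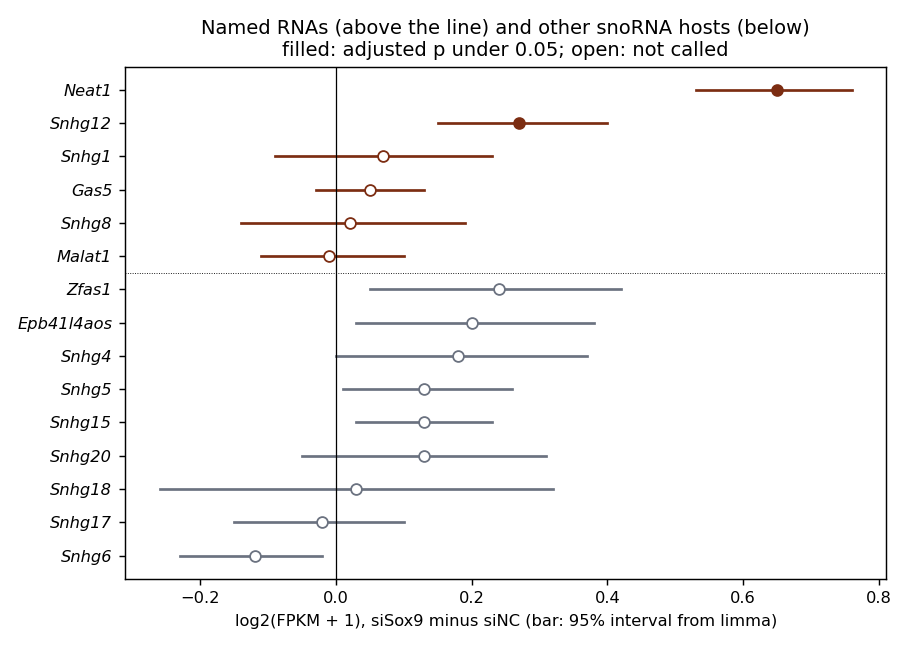
Difference in log2(FPKM + 1), siSox9 minus siNC (horizontal axis), with its 95% interval from limma, for the 6 named RNAs tested (brown, above the dotted line) and 9 other snoRNA host long noncoding RNAs (grey, below), filled where the adjusted p was under 0.05. Neat1 at 0.65 and Snhg12 at 0.27 are filled, and the others lie between -0.12 and 0.24 with open symbols.

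The other snoRNA host long noncoding RNAs were read beside the 4 members. Of 16 on the list, 14 had a row, 9 were tested and 0 were called in either direction by limma, against 30.4% of all genes. Their median log2 difference was 0.13, above the -0.01 of all genes, and the groups did not overlap in 4 of the 9, close to the 46.3% of all genes. Zfas1 stood at 6.25, 5.14 and 6.13 FPKM against 4.36, 4.91 and 5.12, with a log2 difference of 0.24 (interval 0.05 to 0.42, adjusted p = 0.0599). It passed the threshold under 6 of 15 alternatives, among them TPM (0.0327) and without siSox9 replicate 2 (0.0243). Epb41l4aos stood at 20.8, 23.4 and 25.4 FPKM against 20.0, 18.8 and 21.2, with a log2 difference of 0.20 and an adjusted p of 0.0813, which became 0.0261 without siSox9 replicate 1 and 0.0484 with the replicate block.

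Snhg4 had a log2 difference of 0.18 (adjusted p = 0.127), and Snhg15 of 0.13 (adjusted p = 0.053). Snhg15 passed the threshold under median centring (0.0258) and quantile normalization (0.0231). Snhg5 also had 0.13 (adjusted p = 0.093, and 0.0430 without siNC replicate 2), as did Snhg20 (adjusted p = 0.236). Snhg18 had 0.03 (adjusted p = 0.882) and Snhg17 -0.02 (adjusted p = 0.784). Snhg6 was the one whose siSox9 libraries all lay below the siNC libraries, at 15.5, 17.0 and 17.1 against 18.0, 17.9 and 18.4 FPKM, a log2 difference of -0.12 (adjusted p = 0.0697). Most of these differences were positive and small. None passed the threshold as reported, though several did under alternatives, some of them without rescaling.

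Of 29 protein-coding genes that host snoRNAs, all tested, 1 was higher and 2 were lower, fewer than the 30.4% background, with a median of -0.05. Eif4a1, an RNA helicase of translation initiation, had a log2 difference of 0.16 (limma adjusted p = 0.0248). Rpl13, a ribosomal protein, had -0.17 (adjusted p = 0.0125), and Rack1, a ribosome scaffold protein, had -0.14 (adjusted p = 0.0478). All 3 calls were lost when some single libraries were left out. The adjusted p of Eif4a1 reached 0.0619 (calls lost without siSox9 replicate 2 or 3 or siNC replicate 3), that of Rpl13 0.0558 (siSox9 replicate 1 or 2) and that of Rack1 0.152 (any library but siNC replicate 1). With no minimum these became 0.077, 0.0507 and 0.134, and Rack1 also lost the call under TPM, median centring and the replicate block (0.067 to 0.1).

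Among 16 snoRNP proteins and assembly factors, which bind the excised snoRNAs, 1 was higher and 1 lower, below the 30.4% of all genes, with a median of 0.03. Ruvbl2, a helicase of the assembly complex, had a log2 difference of -0.16 (limma adjusted p = 0.0076), and 0.0931 under TPM. Snu13, the protein that binds box C/D snoRNAs first, had 0.12 (adjusted p = 0.0335). The Snu13 call was lost without any 1 of siSox9 replicates 1 to 3 and siNC replicates 2 and 3 (adjusted p = 0.0549 to 0.0935), and under TPM, quantile normalization, no minimum and the replicate block (0.0565 to 0.0664).

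Nonsense-mediated decay, which removes several spliced host RNAs, was read from 17 factors, all tested. Of these, 2 were higher and 2 lower, against 30.4% called over all genes, with a median of -0.04. Smg8, which restrains the kinase of the pathway, had a log2 difference of 0.22 (limma adjusted p = 0.00791), standing at 12.4, 12.6 and 12.7 FPKM against 11.1, 10.9 and 10 (mean 10.7 ± 0.566). Dhx34, a helicase, had 0.19 (adjusted p = 0.0159, and 0.0572 and 0.059 without siSox9 replicate 1 or 2). Magohb and Magoh, the paralogous exon junction proteins whose reads may be shared between the copies, had -0.45 (adjusted p = 0.0203) and -0.21 (adjusted p = 0.041). Magohb lost its call without siSox9 replicate 2 or siNC replicate 2 or 3 (0.0562 to 0.0677) and with no minimum (0.0759). Magoh lost it without any library but siNC replicate 1 (0.0575 to 0.115), under TPM and median centring and with no minimum (0.0518 to 0.118).

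The imprinted RNAs were close to undetectable. H19 (ENSMUSG00000000031, chromosome 7, 142575529 to 142578143, minus strand) stood at 0.0328, 0.0332 and 0.124 FPKM with siSox9 and at 0.119, 0.0349 and 0.0848 FPKM with siNC, which came to 2, 2 and 7 reads against 7, 2 and 5. The groups overlapped and 3 of the libraries were under a floor of 3 reads. Fitted without a minimum on the recovered reads, with limma's voom, the log2 difference was -0.42 with an interval of -1.81 to 0.96 (adjusted p = 0.721). Meg3 (ENSMUSG00000021268, chromosome 12, 109541001 to 109571726, plus strand) stood at 0.0451, 0.037 and 0.037 FPKM against 0.0735, 0.0412 and 0.0467, or 21, 17 and 16 reads against 33, 18 and 21. Its log2 difference in that fit was -0.39 with an interval of -1.07 to 0.30 (adjusted p = 0.576). That interval includes no change and is wide at so few reads. On the log2(FPKM + 1) scale without a minimum both were -0.02, a scale that understates changes of low genes, with 9.60% of 28122 genes called there.

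The protein-coding partners of these loci were low as well. Igf2, the growth factor gene that shares enhancers with H19, was at 0.0442 against 0.0405 FPKM, and Dlk1, the Notch ligand gene beside Meg3, at 0.0283 against 0.0818 FPKM. Of 30 imprinted genes on the list 28 had a row and 13 were tested, of which 2 were higher and 3 lower, not far from the 30.4% of all genes, with a median of -0.05. Cdkn1c, the cell cycle inhibitor p57, stood at 6.52, 5.66 and 6.49 FPKM with siSox9 and 3.06, 3.15 and 3.39 with siNC, a log2 difference of 0.78 (SE 0.06, limma adjusted p = 0.000234). Peg3, a zinc finger gene, stood at 15.0, 14.7 and 13.6 FPKM against 20.9, 20.0 and 21.1 and differed by -0.49 (adjusted p = 0.000415). Ndn, a MAGE family growth suppressor, differed by -0.32 (adjusted p = 0.00311). Nnat, a small membrane protein gene, differed by -0.26 (adjusted p = 0.0488), a call lost without any 1 library but siNC replicate 3 (0.0544 to 0.131), under each of the 3 scalings and with no minimum (0.0661 to 0.141). The imprinted genes called thus lay in both directions.

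Of the 389 tested genes of long noncoding biotypes, the 6 members included, 72 were called, 46 higher and 26 lower, with a median of 0.06. Without the members 70 of 383 were called, or 18.3%, against 30.4% of all genes. A list of other named lncRNAs held 31 that stood on none of the lists above, of which 23 had a row and 9 were tested, with 2 higher and 0 lower and a median of 0.04. Mir22hg, the host of a microRNA, stood at 23.9, 23.0 and 22.3 FPKM against 20.8, 17.5 and 17.9, a log2 difference of 0.29 (limma adjusted p = 0.0146). It missed the threshold without siSox9 replicate 1 (0.0526) or siNC replicate 3 (0.0519) and with no minimum (0.0527). Pvt1, the neighbour of Myc, stood at 1.88, 1.94 and 1.87 FPKM against 1.38, 1.41 and 1.56, with 0.24 (adjusted p = 0.02), and missed it without any 1 library but siNC replicate 3 (0.0504 to 0.0712), with no minimum (0.0656) and with the replicate block (0.051).

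Markers of other cell types were read because the members are expressed in many of them. The counts of calls below stand beside 30.4% of all genes called, 12.8% higher and 17.6% lower, and each list tested few genes. The summed level of 6 macrophage and leukocyte markers was 111 to 122 FPKM with siSox9 and 99.6 to 107 with siNC, with 1 of 5 tested called (Lyz2, 0.21, adjusted p = 0.0175, and 0.0575 with no minimum). That of 5 podocyte markers was 12.5 to 13.9 against 18.8 to 19.5 FPKM, with both tested markers lower (Podxl -0.57, adjusted p = 0.000158; Synpo -0.33, adjusted p = 0.00636) and the defining marker Nphs1 at 0 in all libraries. Fibroblast markers summed to 6.45 to 7.95 against 7.99 to 9.09 FPKM and endothelial markers to 2.91 to 3.10 against 3.22 to 4.12, with 0 called among the 1 tested of each. The endothelial marker Emcn, under the minimum, stood at 0.69, 0.699 and 0.604 FPKM against 1.15, 1.01 and 1.08. It was lower in the fit without a minimum (-0.32, limma adjusted p = 0.0331), which called 9.6% of all genes. Pecam1 and Cdh5 were also lower but not called in that fit. Kdr (0.509 against 0.418 FPKM) and Tek (0.122 against 0.0889 FPKM) went the other way, with overlapping groups. Of 9 tested tubule markers, 1 was called (Cdh16, 0.36, adjusted p = 0.000307). The podocyte, macrophage, fibroblast and endothelial sums each lay apart between the groups, as the Neat1 and Snhg12 levels did. So did 46.3% of all genes tested. The sum of the nonsense-mediated decay factors (245 to 249 against 256 to 258 FPKM) also lay apart, while those of paraspeckle and nuclear speckle proteins overlapped. Most of the podocyte sum was Podxl and Synpo. Most of the fibroblast sum was Col1a1, at 5.79 against 6.78 FPKM with overlapping groups (limma adjusted p = 0.118). The fibroblast and endothelial gaps were narrow. The summed tubule markers overlapped (3816 to 3971 against 3654 to 3854 FPKM). Most of the macrophage sum was Lyz2, at 83.4 ± 3.91 FPKM with siSox9 against 71.9 ± 3.78 with siNC. Cd68, Adgre1 and Cd14 were slightly higher with siSox9 and Csf1r and Ptprc slightly lower, and the groups of each overlapped. The part of other cell types in the Neat1 and Snhg12 values was not tested.

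The calls of the members did not depend on one setting. Under 15 alternatives in scaling, pseudocount, minimum, blocking, left-out libraries and recovered reads, Neat1 ranged from 0.61 to 0.77 and Snhg12 from 0.23 to 0.31 on the log2 scale, and both stayed past the threshold in each, with adjusted p up to 0.00211 and 0.0381. The plot of the alternatives shows the other 4 near 0.

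**Figure D4:**
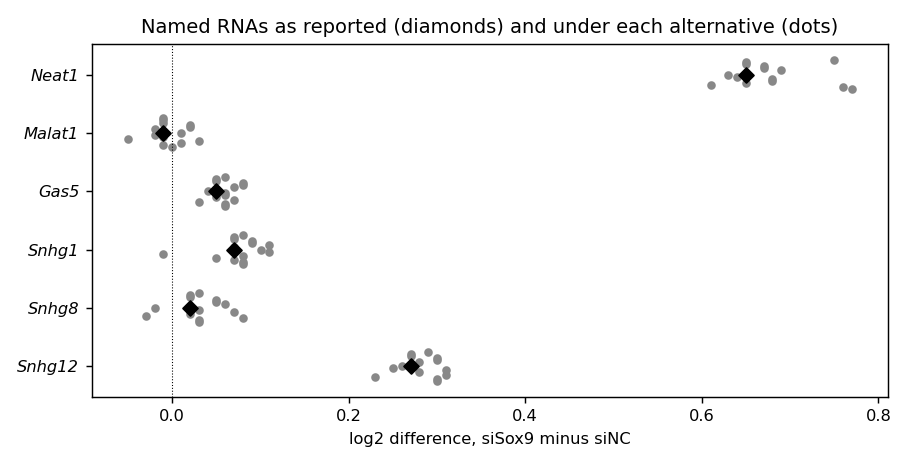
Log2 difference, siSox9 minus siNC (horizontal axis), of the 6 named RNAs tested, as reported (black diamonds) and under each of 15 alternatives (grey dots). Neat1 lies between 0.61 and 0.77 and Snhg12 between 0.23 and 0.31, while Malat1, Gas5, Snhg1 and Snhg8 stay between -0.05 and 0.11.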

How the data were processed

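RNA-Seq of 3 siSox9 and 3 siNC libraries was analysed from a table in which the authors deposited FPKM per gene and library, with gene positions. The submitters' processing notes name HISAT2 2.1.0, Bowtie2 2.2.3 and TopHat2 and the build mm9, but 93.3% of 30246 genes matched by identifier had the GRCm38 position of GENCODE M21, and positions are given as GRCm38. The quantifier, strandedness and RNA selection were not given in the sources used here.

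FPKM were tested as log2(FPKM + 1) with limma 3.58.1 in R 4.3.3 (empirical Bayes with trend), over the 12009 genes averaging 1 FPKM or more, and p-values were adjusted by Benjamini-Hochberg over all of them. A gene was called at an adjusted p under 0.05. Fold changes on this scale understate those of low genes. Mean ± SD is over 3 libraries. Whole reads were recovered from FPKM with exon lengths of GENCODE M21, and 93.3% to 93.4% of values per library came out whole within 0.02 reads. Lengths of Snhg12 and H19 were instead found by searching for one that made their values whole. The voom fit on those reads called 3708 of 10480 genes, and counting errors cover counting only. Methods were tested on simulated data. Nothing states that replicates came from separate cultures, so p-values measure the spread between these libraries, which may be technical.

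The members, the 13 gene lists and the tests were chosen with earlier results of these data known. Genes named were the members, Sox9, the nearest tested gene on either side of each member, up to 4 called genes with the largest difference per list, every other snoRNA host lncRNA tested, and the 3 genes nearest to Neat1 by Euclidean distance. Nono, Cpsf6, Cpsf7, Hnrnpk, the other SR proteins, Igf2, Dlk1 and Snora16a were added after their values were seen. So were Emcn, Krt8, Slc34a1, Nphs1 and the other cell type markers named that were not called. Sequences came from RefSeq (GRCm38.p6) and GENCODE M21. Alternatives were another pseudocount (0.1), no minimum or 5 FPKM, TPM, median centring, quantile normalization, a replicate block, each library left out and voom on recovered reads.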

Additional observations from a re-analysis of the deposited data

How the results depend on the processing

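Under all 15 alternatives 2 members were called, Neat1 and Snhg12, and the median difference of the members stayed between 0.06 and 0.08 when single libraries were left out. Replicate numbers are shared by the groups, but same-numbered libraries did not deviate together (correlations 0.0649, -0.0504 and 0.00784). With the number as a replicate block, 3262 genes were called in place of 3650, and Neat1 (0.65, adjusted p = 0.00136) and Snhg12 (0.27, adjusted p = 0.0061) were still called by limma. Differences close to 0 changed sign in places, and the cause was not tested. Under TPM Malat1 was 0.02, Slc3a2 0.02 and Snhg17 0.00, under median centring they were 0.02, 0.02 and 0.00, and Snhg17 was 0.02 with quantile normalization. With each library left out in turn Malat1 ranged from -0.05 to 0.03, Snhg1 from -0.01 to 0.11, Snhg8 from -0.03 to 0.08, Slc3a2 from -0.03 to 0.02, Snhg17 from -0.05 to 0.02, Snhg18 from -0.09 to 0.13, Stx5a from -0.01 to 0.08 and Trnau1ap from -0.01 to 0.05. Over all named genes and alternatives, 752 values kept direction and call, 84 lost the call, 17 gained it and 21 changed sign. With a minimum of 5 FPKM 2704 of 7495 genes were called, and with TPM 2571. The voom fit without a minimum was added after seeing the data so that H19 and Meg3 had a fitted value. Reads per library limit Snhg8, H19 and Meg3 most.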
